A study of Danio rerio with 4 samples.

Results

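The library described here is a Ribo-seq library labelled as zebrafish brain from siblings of nop2 mutants, 1 of the 4 samples of the series. It was chosen by its label and described without any contrast with the mutant. Ribo-seq sequences the stretches of messenger RNA that a ribosome covers and so protects from a nuclease, called footprints, and counts them per gene. The genotype label says nop2 sibling, without saying whether these fish were wild type or heterozygous for the mutation, and no treatment is given. The age is 48 days past fertilization in the title but 48 hours in the design text, and nothing else in the labels settles it. In the footprints, 99.993% of those on globins fell on embryonic genes, which zebrafish use in the embryo and larva, and 8 fell on adult genes. The genes he1.1 and he1.2, whose enzymes free the embryo from its egg shell, also carried footprints. By these genes the library reads as that of an embryo or larva, a stage that goes with the 48 hours rather than the 48 days. The age itself was not tested. The labels call the material brain tissue and whole brain cells, and do not say how many animals were pooled. The other 3 samples, a mutant Ribo-seq library and a pair of RNA bisulfite libraries, were not used.

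A ribosome on a messenger RNA moves codon by codon through the coding sequence while it makes the protein. The footprints of a gene therefore grow with the amount of its messenger RNA, with the number of ribosomes each messenger carries and with the length of its coding sequence. CPM values scale a gene's footprints to the library total and so give its share of all footprints, and the deposited TPM values give its density of footprints per length. Rankings in CPM order genes and families by their share of footprints, which grows with length. Levels of different genes are compared below only in TPM. No total RNA was analysed here, so messenger amount and ribosome load are held together in each value, and in a sample of whole tissue fewer cells of a type and less RNA per cell cannot be told apart.

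The deposited table held 25522 genes, and 20696345 footprints were assigned to them. At least 1 footprint was counted for 22366 genes, and 18166 genes reached 1 CPM. A single footprint was worth 0.0483 CPM, and a gene with no footprint may still have had up to 0.145 CPM, the level of 3 counts. The median gene with a footprint had 8.02 CPM and 5.50 TPM. There was 1 library and no replicate, so no test was made, and the 95% intervals given below cover counting error only, since the labels name no molecular identifiers and reads may repeat the same molecule.

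Footprints were concentrated on few genes. The 9 most abundant genes held 10% of the footprints, 67 genes held 25% and 519 genes held 50%. The 100 most abundant genes took 28.7% of all footprints (exact 95% interval 28.70 to 28.74%). On the TPM scale 278 genes held 50%. Counts that were not whole numbers, as an estimate that divides reads among genes gives them, were found for 21.1% of the genes, and these genes held 52.2% of the footprints.

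**Figure D1:**
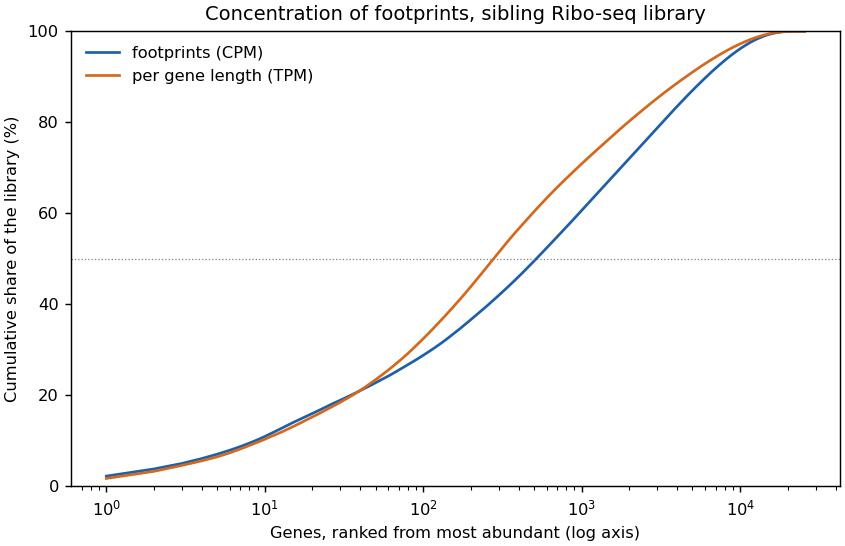
Cumulative share of the sibling Ribo-seq library (vertical axis, %) against genes ranked from the most abundant (horizontal axis, log scale), for footprints in CPM and for TPM. The dotted line marks 50%, which the CPM curve crosses at 519 genes and the TPM curve at 278 genes.

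Genes of contracting muscle, of lipoprotein particles, of the skin and of the general translation machinery led the ranking. Of the 30 genes with most footprints, 10 were on the skeletal muscle list, 5 on the list for liver and yolk syncytial layer, 2 on the list for epidermis and periderm and 1 on the neuron list, while 12 were on none of these 4. The most footprints fell on myhz1.1 (ENSDARG00000067990), a heavy chain of fast muscle myosin, with 21336 CPM (95% interval 21274 to 21398), which was 2.13% of the library. The related gene myhz1.2 had 10744 CPM. The muscle actin actc1b had 12049 CPM, and atp2a1, the calcium pump that lets fast fibres relax, had 6964 CPM. These 4 genes all had counts that were not whole, so they are estimates, and how reads were divided among near copies is not given in the labels.

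Apolipoproteins are the proteins that hold lipid particles together and carry yolk and dietary lipid in the blood. The 2nd gene in the ranking, after myhz1.1 and ahead of actc1b, was apobb.1 with 15828 CPM (95% interval 15775 to 15882). It encodes a very large scaffold protein of lipoprotein particles. The smaller apolipoproteins apoa1b, apoa1a and apoa2 had 7223, 5609 and 3307 CPM, and the second large scaffold gene apoba had 2422 CPM. The order was different per length. Density was highest among these 5 for apoa1b with 8571 TPM, followed by apoa2 with 6924 TPM and apoa1a with 6533 TPM, while apobb.1 had 1355 TPM and apoba 174 TPM.

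Of the remaining leaders, the cytoplasmic actins actb2 and actb1, which build the cytoskeleton of every cell, had 9571 and 4303 CPM. Delivery of aminoacyl-tRNA to the ribosome is the task of elongation factor 1A, and its gene eef1a1l1 had 7741 CPM. The translocation factor gene eef2b had 3571 CPM. The chaperones hspa8 and hsp90ab1 had 3402 and 2702 CPM, and bhmt, an enzyme that makes methionine from homocysteine, had 5159 CPM. Skin keratins were represented by krt4 with 6520 CPM and cyt1 with 2795 CPM. Creatine kinases buffer ATP in muscle, and ckmb and ckma had 4381 and 3583 CPM. The rod-shaped thin filament protein tropomyosin tpma had 4654 CPM, and the myosin light chain mylz3 had 2370 CPM. The last of the 30 was tuba1c, an alpha tubulin of growing neurons, with 2345 CPM. Intervals of neighbours in this ranking overlapped in 4 of 29 pairs, so counting error alone leaves most of the order as it stands. Most of these 30 genes had counts that were not whole. The error of dividing reads among near copies is not in the intervals, so the order is not settled by them.

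**Figure D2:**
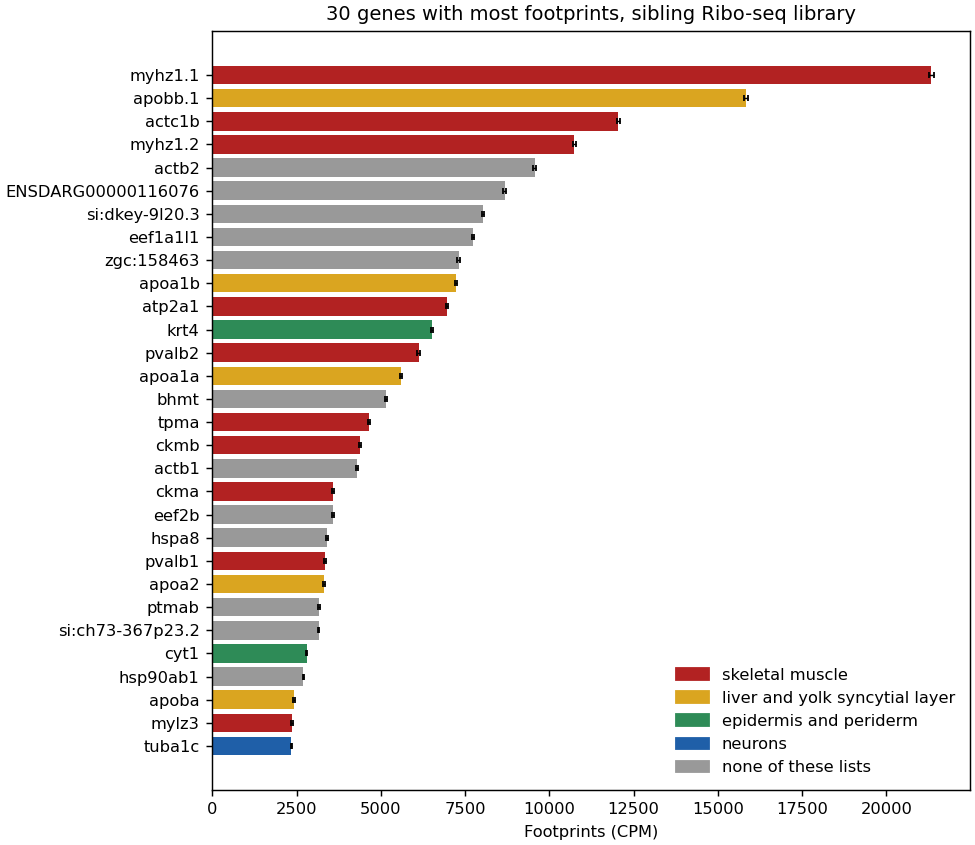
The 30 genes with most footprints in the sibling Ribo-seq library, with CPM on the horizontal axis, exact 95% counting intervals as black lines and bar colours giving the marker list. The bars run down from myhz1.1 at 21336 CPM to tuba1c at 2345 CPM.

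Some abundant entries have no established protein role in the sources used. ENSDARG00000116076 had 8679 CPM and is described in the deposited annotation as a hypothetical protein of another fish. A total of 7 genes share that description, and together they held 1.03% of the footprints. ENSDARG00000105341 had 8028 CPM and is described as the uncharacterized protein si:dkey-9l20.3. The gene zgc:158463 had 7311 CPM, 0.731% of all footprints, and RefSeq's annotation of assembly GRCz12tu lists it as a ribosomal RNA gene. A further entry, si:ch73-367p23.2, had 3155 CPM and carries only a name by similarity.

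Per length, genes of small proteins moved up the ranking. The highest density was that of pvalb2, a parvalbumin that binds calcium in fast muscle fibres, with 16242 TPM (95% interval 16152 to 16331). It was followed by zgc:158463, the gene that RefSeq lists as ribosomal RNA, with 15619 TPM. Next were ENSDARG00000116076 with 13143 TPM, actc1b with 9872 TPM and the second parvalbumin pvalb1 with 8869 TPM. Prothymosin alpha, a small acidic protein of the nucleus, followed with 8631 TPM for ptmab, and thymosin beta 4, which holds actin monomers, had 6572 TPM for tmsb4x. Apolipoprotein apoc1 reached 5414 TPM. The myosin gene myhz1.1, which led in footprints, was the 24th gene in TPM with 3479 TPM. The 30 leading genes on the CPM and the TPM scale had 21 genes in common. For the next comparison, relative gene length was not measured but inferred from the ratio of CPM to TPM. Among genes with at least 100 footprints, the 2663 with the lowest ratio held 27.8% of the footprints and 57.3% of the TPM. The 2663 with the highest ratio held 21.9% of the footprints and 4.72% of the TPM. Sorting by this ratio fixes the direction of that contrast in advance, so it is no test of an effect of length. Titin, the giant spring protein of the sarcomere, had 1676 CPM but 39.4 TPM at its most covered entry.

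By gene symbol, 50 families were set up, and their 1876 distinct genes held 41.6% of the footprints. The apolipoproteins took the largest share, 4.18% of the footprints from 18 genes (exact 95% interval 4.17 to 4.19%), and 68.5% of that lay on 3 genes. Cytosolic ribosomal proteins, the structural proteins of the ribosome itself, took 3.57% from 84 genes. That share was spread over many genes, as 25 genes were needed for 50% of it, and their median was 788 TPM. By footprints rpl3 (1096 CPM), rpl19 (1023 CPM) and rpl4 (988 CPM) were in front. Per length the order differed, with 943 TPM for rpl3 and 2442 TPM for rps18. Muscle myosin heavy chains took 3.48%, of which 94.3% lay on myhz1.1, myhz1.2 and myhz2. Crystallins, the transparent proteins that fill lens fibre cells, took 3.02% over 56 genes. Actins took 2.95%, and histones, which package DNA, took 2.61%, led by h2ax (1184 CPM) and h3f3d (1020 CPM). A further 12 entries under the symbol zgc:112234 are described as histone H2B and were not matched by symbol, the highest of them at 1008 CPM, and with them histones held 3.07% of the footprints.

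On the TPM scale the order of these families changed. Ribosomal proteins held 6.53% of the TPM, histones matched by symbol 6.22% and with the zgc:112234 entries 7.30%, crystallins 4.90% and apolipoproteins 3.70%, whereas muscle myosin heavy chains held 0.614%. Parvalbumins held 2.65% of the TPM and 0.998% of the footprints, and 97.4% of their footprints lay on pvalb2, pvalb1 and pvalb4. Collagens, the long fibrous proteins of connective tissue, held 1.26% of the footprints and 0.289% of the TPM, with col2a1a of cartilage at 1836 CPM, col1a1a of skin and bone at 1834 CPM and col1a2 at 1769 CPM. Keratins held 1.81% of the footprints, elongation factors 1.303%, hnRNP proteins, which bind nascent RNA, 1.26%, and the 463 solute carriers 1.14%.

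Creatine kinases held 0.979% of the footprints, and in them the brain-type gene ckbb had 1389 CPM beside the muscle-type ckmb and ckma. Heat shock proteins of 70 and 90 kDa held 0.867%, glycolytic enzymes 0.806%, with ldhba (1014 CPM) and gapdh (756 CPM) among the leading members, and calcium ATPases 0.800%. Initiation factors held 0.791%, proteasome subunits 0.706%, and the HMG proteins, HMGN genes included, 0.686%, led by hmgb2a (968 CPM) and hmga1a (909 CPM). Alpha tubulins held 0.713% and beta tubulins 0.618%, led by tuba1c (2345 CPM) and tubb2b (2214 CPM). Subunits of the mitochondrial ATP synthase held 0.544%, and the 13 proteins encoded in mitochondrial DNA held 0.443%, led by mt-co1 (1375 CPM), a subunit of cytochrome oxidase. Sodium potassium ATPases held 0.278%, and their lead gene atp1a3a (844 CPM) encodes the neuronal pump subunit.

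Marker lists of 30 tissues and cell types, 703 distinct genes in the table, together held 22.2% of the footprints, and 43 of the 100 most abundant genes were on them. The size of a list's share depends on which genes were put on it, so the shares describe where footprints fell and do not measure how much of a tissue was present. Skeletal muscle had the largest share of the lists, 9.33% (exact 95% interval 9.32 to 9.34%) over 63 genes. The list for liver and yolk syncytial layer, the layer that exports yolk to the embryo, had 4.62% over 40 genes, and epidermis and periderm had a share between 2.09 and 2.11% (exact 95% interval) over 51 genes. Neurons had 1.45% over 49 genes (exact 95% interval 1.44 to 1.46%), and lens had 1.17% over 36 genes. The label of the material as brain stood beside neuronal markers that all had a footprint, as 22366 of the 25522 genes of the table did. At the same time, 3 lists of tissues outside the nervous system each took a larger share of footprints than the neuron list. By these markers the footprints were not those of brain alone. Which other parts of the animal were included was not tested. In TPM, lens with 1.68% and erythroid cells with 1.23% also stood above the neurons with 1.18%, and without genes whose counts were not whole the epidermis list with 0.522% stood below the neurons with 0.690%. The lens list leaves out the gamma M crystallins named crygm2d, and the crystallin family alone held more footprints than the neuron list.

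**Figure D3:**
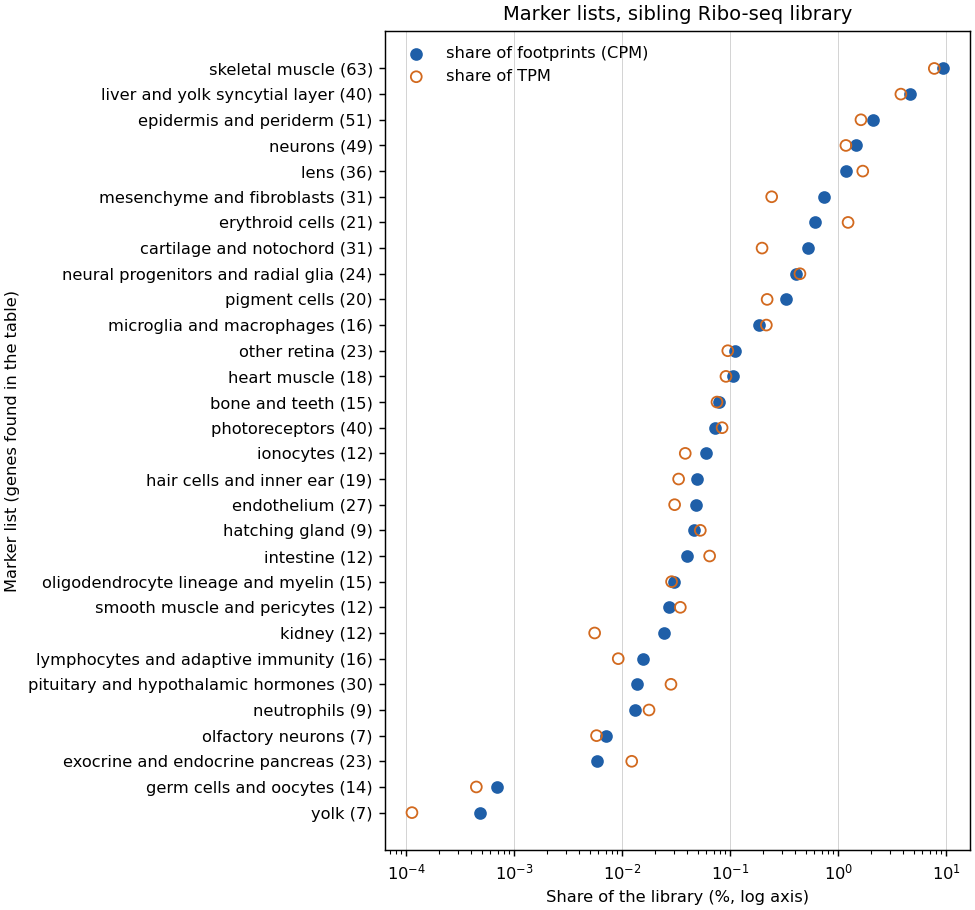
Share of the sibling Ribo-seq library held by each of the 30 tissue and cell type lists (log scale, %), as footprints in filled points and as TPM in open points, with the number of listed genes found in the table in brackets. The lists run down from skeletal muscle at 9.33% of the footprints to yolk at 0.000483%.

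All 63 skeletal muscle genes found in the table had a footprint, as did 22366 of all 25522 genes. The median TPM of the genes with a footprint was exceeded by 56 of the 63. The densest were pvalb2, actc1b and pvalb1. Among the defining markers, the fast light chain mylpfa had 4485 TPM, myhz1.1 3479 TPM, ckma 2906 TPM, atp2a1 2571 TPM, skeletal actin acta1b 1718 TPM and fast troponin tnnt3a 503 TPM. The slow myosin gene smyhc1, the only slow-fibre gene among these markers, was the lowest of them with 43.6 TPM. The related myosin genes myhz2 and myhz1.3 had 125 and 109 TPM. Genes whose counts were not whole held 93.8% of this list's footprints. When all such genes were left out of the library, the muscle list held 1.22% of the footprints, and the neuron list then held 0.690%.

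Heart muscle was far lower, with 0.106% of the footprints. Its lead gene actc1a had 530 TPM, but the defining markers cmlc1, myl7, nppa, tnnt2a, myh7 and myh6 had 75.3, 48.0, 41.6, 22.5, 16.5 and 7.37 TPM. Smooth muscle and pericytes had 0.0271%, with myl9b at 252 TPM, acta2 at 15.8 TPM, tagln at 6.95 TPM and myh11a at 3.38 TPM.

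Of the liver and yolk syncytial layer genes, 39 of 40 had a footprint, beside 22366 of all 25522 genes, and 35 lay above the median TPM. After apoa1b, apoa2 and apoa1a stood apoc1 and, at 1429 TPM, the retinol carrier rbp4. The iron carrier tfa had 755 TPM, the fibrinogen chains fgg, fgb and fga 241, 197 and 181 TPM, and the protease inhibitor serpina1 219 TPM. The liver fatty acid binding protein fabp10a, expressed by hepatocytes, had 11.8 TPM from 105 footprints. Yolk protein precursors, the vitellogenins that the liver of a mature female makes, were almost without footprints. On the yolk list, vtg7 had 68, vtg1 16 and vtg6 16 footprints, and vtg2, vtg3 and vtg5 had none, and the list held 0.000483% of the library.

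Every one of the 51 genes found on the epidermis and periderm list reached 1 CPM, as did 18166 of all 25522 genes. Densities were 4079 TPM for krt4, 2167 TPM for the ictacalcin gene icn, 2019 TPM for cyt1 and 1770 TPM for the basal keratin krt5. Of the 7 defining markers, 6 were found by name. Besides krt4 and krt5, these reached from 304 TPM for agr1 through 95.1 TPM for the adhesion molecule epcam and 59.4 TPM for E-cadherin cdh1 to 36.5 TPM for tp63, the transcription factor of basal skin cells. The keratin krtt1c19e was not found under that name, and the similarly named keratin krt1-19e had 959 TPM. Ionocytes, the ion-transporting cells of fish skin, had 0.0596% of the footprints, of which 59.3% lay on atp6v1aa, a subunit of a general proton pump. Without it the list held 0.0243%. Its defining factors foxi3a and foxi3b had 6.29 and 6.28 TPM, with 2.196 TPM for the calcium channel trpv6 and 8.95 TPM for slc12a10.2.

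The eye was represented mainly by the lens. Of the lens list, the densest were crybb1 at 2580 TPM, crygn2 at 2268 TPM and crybb1l1 at 2021 TPM, while cryba2a had 902 TPM, the alpha crystallin cryaa 102 TPM, the water channel mipa 73.9 TPM and grifin 35.2 TPM. In the crystallin family as a whole, the 21 gamma M crystallins named crygm2d, which are not on the lens list, held 62.8% of the footprints and reached 2875 TPM for crygm2d17, and 91.8% of the family's footprints were on genes whose counts were not whole. Pigment cells had 0.327% of the footprints and all 20 genes above 1 CPM, beside 18166 of all 25522 genes at 1 CPM. On this list gch2 of yellow pigment cells had 438 TPM and paics of purine synthesis 352 TPM. The melanin enzymes dct and tyrp1b had 285 and 259 TPM, pnp4a of iridophores 194 TPM and the melanosome protein pmela 159 TPM.

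Photoreceptor genes were low by comparison, with 0.0715% of the footprints. The photoreceptor transcription factor crx had 153 TPM, rbp4l 78.5 TPM and otx5 71.6 TPM. Rhodopsin, the light receptor of rods, had 57.01 TPM, the ultraviolet opsin opn1sw1 9.43 TPM, the transducins gnat1 and gnat2 8.41 and 7.82 TPM, and the red opsin opn1lw1 0.071 TPM from 2 footprints. The remaining retina list held 0.110%, with vsx1 of bipolar cells at 169 TPM and rpe65a of the pigment epithelium at 76.8 TPM. On this list tfap2a of amacrine cells, also a gene of neural crest and skin, had 167 TPM. Other defining genes of that list were pou4f2 (54.9 TPM) and atoh7 (26.0 TPM) of ganglion cells, rlbp1a (32.7 TPM), rx2 (6.88 TPM) and rx1 (5.68 TPM).

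Connective tissue and skeleton lists had intermediate shares. Mesenchyme and fibroblasts held 0.740%, led per length by col1a2 (412 TPM), postnb (401 TPM) and col1a1a (400 TPM), while pdgfra, prrx1a and twist1a had 20.1, 29.8 and 8.79 TPM. Cartilage and notochord held 0.521%, led by the cartilage collagen col2a1a (396 TPM), matn4 (242 TPM) and hapln1a (226 TPM). Its other defining markers were epyc (49.4 TPM), matn1 (43.2 TPM), col8a1a (7.68 TPM), acana (5.11 TPM) and the notochord factor tbxta (4.42 TPM). Bone and teeth held 0.0779%, of which 75.8% lay on sparc, a matrix protein made by many tissues. The bone markers col10a1a and ifitm5 had 42.0 and 22.6 TPM, but the osteoblast factor sp7 had 1.57 TPM, spp1 0.340 TPM and bglap 0.134 TPM.

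Neuronal genes were measured throughout. All 49 found on the neuron list reached 1 CPM, beside 18166 of the 25522 genes of the table, and 46 lay above the median TPM. The densest were tuba1c at 1613 TPM, tuba1a at 1560 TPM and tubb5 at 916 TPM. On tuba1c lay 16.2% of this list's footprints, and without it the list held 1.22% of the library. Genes whose counts were not whole held 77.3% of the list's footprints. Among the defining markers, stmn1b, which regulates microtubules in young neurons, had 555 TPM, the synuclein sncb 455 TPM, the RNA-binding proteins elavl3 and elavl4 335 and 294 TPM, the membrane fusion proteins snap25a and snap25b 242 and 175 TPM, and the synaptic vesicle calcium sensor syt1a 86.2 TPM. The highest rank of these 7 in footprints was that of elavl3, the 377th gene of the library.

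Progenitors and radial glia, the dividing stem cells that line the brain ventricles, held 0.407%, and all 24 genes lay above the median TPM. The fatty acid binding protein fabp7a led with 1782 TPM, before the differentiation inhibitor id1 with 799 TPM and the glial glutamate transporter slc1a2b with 504 TPM. The glial filament gfap had 137 TPM, and sox2, sox3 and sox19a, transcription factors of neural stem cells, had 107, 76.9 and 46.3 TPM. The Notch target her4.1 had 18.8 TPM. Proneural and early differentiation genes held 0.192%, led by sox11a (355 TPM), sox11b (229 TPM) and sox4a (214 TPM), with neurod1 at 149 TPM, neurog1 at 30.7 TPM, the Notch ligands dla and dld at 21.3 and 13.9 TPM and ascl1b at 20.6 TPM.

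Genes of myelin were low. The oligodendrocyte and myelin list held 0.0298% of the footprints, and its lead gene cnp had 96.5 TPM, followed by plp1a with 51.1 TPM and mbpb with 47.7 TPM. The lineage factors olig2 and sox10 had 23.9 and 23.6 TPM, whereas the myelin genes mbpa and mpz had 2.49 and 1.53 TPM from 22 footprints each and the myelination factor myrf 3.45 TPM. The microglia and macrophage list held 0.183%, but 92.8% of that lay on apoeb, an apolipoprotein that microglia and the yolk syncytial layer both express, with 2063 TPM. Without it the list held 0.0131%, and its defining genes csf1ra, mpeg1.1, spi1b and p2ry12 had 8.37, 4.60, 1.51 and 0.777 TPM. Endothelium held 0.0478%, with the water channel aqp1a.1 at 109 TPM, cdh5 at 9.39 TPM, kdrl at 9.06 TPM, tie1 at 3.88 TPM and pecam1 at 0.242 TPM.

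**Figure D4:**
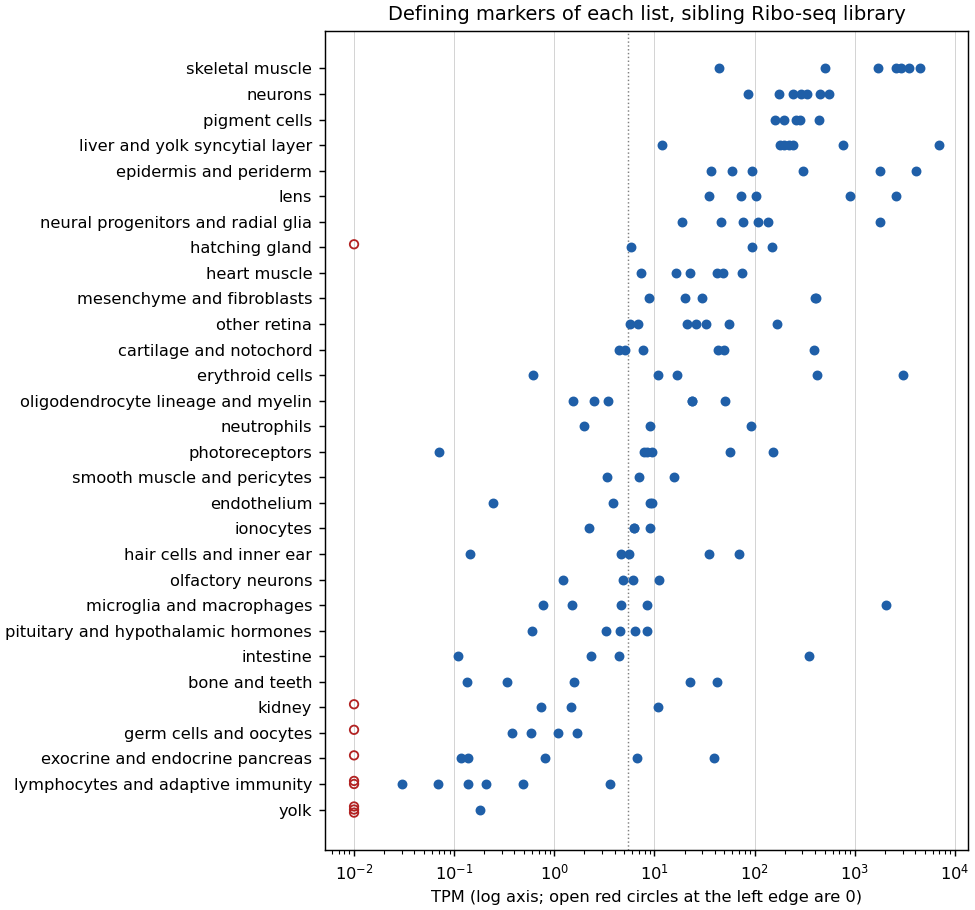
TPM (log scale) of the defining markers of each tissue list in the sibling Ribo-seq library, 1 point per gene, with lists ordered by their median and genes without a footprint drawn as open red circles at the left edge. The dotted line is the median of genes with a footprint, 5.50 TPM. All defining markers of the skeletal muscle, heart muscle, neuron, pigment cell, liver, epidermis, lens, progenitor and mesenchyme lists lie to its right.

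Genes that define each transmitter type were measured. For GABA, the main inhibitory transmitter, the transporter slc6a1b had 113 TPM, the vesicular transporter slc32a1 64.9 TPM, and the synthesis enzymes gad1b and gad2 36.2 and 26.0 TPM. The glycine transporters slc6a9 and slc6a5 had 84.4 and 24.8 TPM. Glutamate neurons were marked by the vesicular transporters slc17a6a and slc17a6b with 29.8 and 25.2 TPM, and their relative slc17a7a had 8.67 TPM. Acetylcholine genes were lower, with slc18a3a at 9.08 TPM and chata at 1.66 TPM. The catecholamine enzyme th had 8.66 TPM and the dopamine transporter slc6a3 1.97 TPM, and the serotonin genes slc6a4a and tph2 had 6.80 and 2.69 TPM. Neuropeptide and pituitary genes held 0.0136% of the footprints, led by adcyap1b (96.8 TPM), sst1.1 (25.1 TPM) and tac1 (24.0 TPM), and the hormones oxt, prl, pomca, gh1 and cga had 8.48, 6.40, 4.55, 3.27 and 0.601 TPM.

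Regional transcription factors of every division of the brain carried footprints, but so did 22366 of the 25522 genes of the table. Of all genes 18166 reached 1 CPM, so reaching it is not particular to these lists. In the telencephalon list 16 of 17 genes reached 1 CPM, with lhx2b at 42.6 TPM, neurod6b at 37.9 TPM and dlx5a at 33.3 TPM, and with dlx2a, foxg1a, tbr1b and emx3 at 23.5, 21.9, 13.2 and 6.70 TPM. All 19 genes for diencephalon and hypothalamus reached it, led by tcf7l2 (115 TPM), otpa (80.3 TPM) and otpb (67.6 TPM), with nkx2.1 at 9.38 TPM and sim1a at 1.79 TPM. Midbrain and isthmus genes included meis2a (209 TPM), otx2b (101 TPM), gata3 (54.5 TPM), pax2a (28.4 TPM), en2b (15.3 TPM) and en2a (11.3 TPM). Among the cerebellum and hindbrain genes, tfap2a, also a gene of neural crest and skin, had 167 TPM, lhx1a 100.0 TPM and lhx9 65.1 TPM, while the rhombomere genes mafba, hoxb1a and egr2b had 11.8, 1.17 and 0.799 TPM and the granule cell factor atoh1a 4.77 TPM. These 4 lists held between 0.0405% and 0.0826% of the footprints each.

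Transcription factors as annotated in the deposited table, 2264 genes, held 4.80% of the footprints, and their median of 3.89 TPM stood beside 3.95 TPM for all genes of the table. The homeobox class was led by meis2a (209 TPM), meis2b (198 TPM) and meis1b (174 TPM), partners of Hox proteins. Helix-loop-helix factors were led by the inhibitors id1 (799 TPM), id2a (391 TPM) and id3 (157 TPM) before neurod1. The POU class was led by pou3f1 (116 TPM), the Otx class by crx (153 TPM) and otx2b (101 TPM), the Pax class by pax6a (71.0 TPM), the COE class by ebf3a (153 TPM) and the forkhead class by foxp4 (96.5 TPM).

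Hox genes, whose paralog groups are switched on in order from the hindbrain to the tail, held 0.0405% of the footprints. Paralog group 5 had the highest summed level, 143 TPM over 4 genes, led by hoxb5b (55.4 TPM), and group 4 followed with 120 TPM, led by hoxa4a (47.7 TPM). Groups 1 to 9 together held 98.2% of the Hox TPM. Groups 10, 11, 12 and 13 had 3.34, 2.27, 0.896 and 2.72 TPM. Group 7, which is represented by 1 gene, had 7.94 TPM.

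Globins mark red blood cells and their stage. Zebrafish use embryonic globins in the red cells of the embryo and larva and adult globins later. The 11 globin genes annotated as embryonic had 121987 footprints, and the 5 adult ones had 8 after rounding, so that embryonic genes held 99.993% of globin footprints (exact 95% interval 99.987 to 99.997%). The densest were the alpha globin hbae3 with 3006 TPM, hbae1.2 with 2484 TPM and the beta globin hbbe1.2 with 2352 TPM. They were followed by hbae1.3 and hbbe1.3 with 1759 and 1681 TPM, hbbe1.1 with 419 TPM, hbbe2 with 285 TPM, hbbe3 with 146 TPM, hba1 with 74.8 TPM, hbae5 with 3.88 TPM and hbae4 with 2.02 TPM. Of the adult genes, hbba2 had 6 footprints, hbba1 and ba1l 1 each, and hbaa1 and hbaa2 none. Globins together held 0.589% of all footprints. The remaining red cell markers were lower per length, with slc4a1a at 16.9 TPM, alas2 at 10.8 TPM and gata1a at 0.610 TPM.

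**Figure D5:**
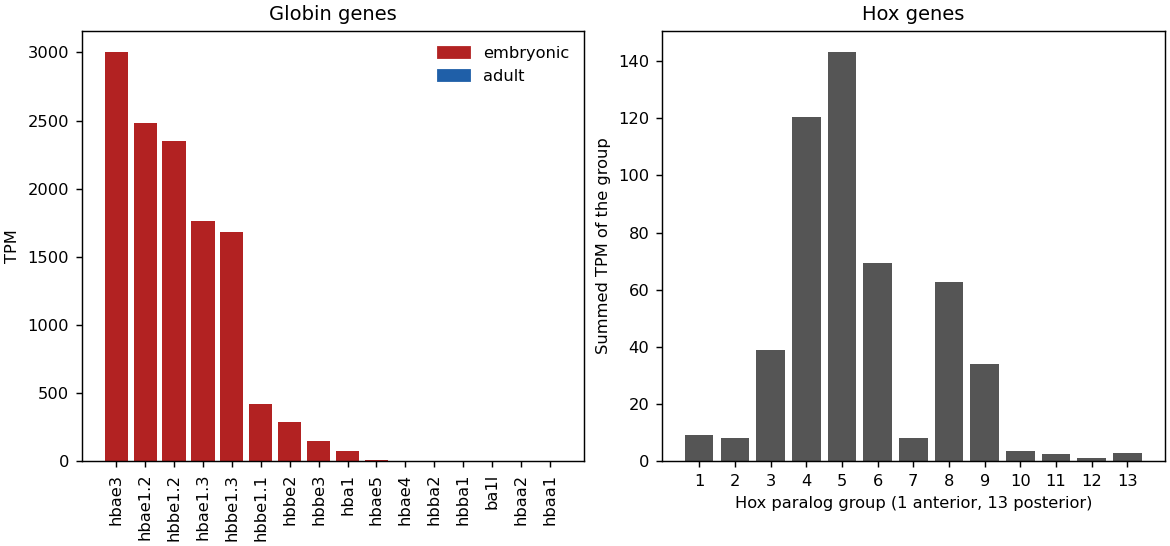
TPM of each globin gene (left, embryonic in red and adult in blue) and summed TPM of each Hox paralog group (right) in the sibling Ribo-seq library. Embryonic globins reach 3006 TPM while adult ones stay at or under 0.584 TPM, and Hox groups 4 and 5 are highest with 120 and 143 TPM.

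Other genes tied to stage were read in the same way. Hatching gland cells release the enzymes that free the embryo from its egg shell, and the enzyme genes he1.1 and he1.2 had 148 and 94.9 TPM. Other values were 80.2 TPM for ctslb and 199 TPM for cd63, while he1.3 had no footprint and the gland factor klf17 had 5.78 TPM. On cd63 lay 33.7% of this list's footprints. Genes whose counts were not whole held 98.3% of them, so the split among near copies is an estimate. All 40 cell division genes reached 1 CPM, beside 18166 of all 25522 genes. They all lay above the median TPM, and the list held 0.696% of the footprints. Replication factor pcna had 582 TPM, cyclin ccnb1 217 TPM, the kinase cdk1 110 TPM, top2a 77.3 TPM and mki67 42.5 TPM, beside hmgb2a and hmgb2b with 1374 and 1230 TPM.

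Genes of adaptive immunity were near the floor. Of the 16 found, 11 had a footprint and 3 reached 1 CPM, beside 22366 and 18166 of all 25522 genes. On tox, a gene also expressed in the developing brain, lay 94.0% of the list's footprints. The recombination genes rag1 and rag2 had 14 and 17 footprints, zap70 had 5, lck and cd79a had 1 each, and cd4-1 and cd8a had none. The B cell factor pax5, a gene also of the midbrain boundary, had 3.63 TPM. Neutrophil genes held 0.0131%, with lyz at 92.2 TPM, mpx at 8.98 TPM and mmp13a at 2.00 TPM.

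Inner organs and the germ line had small shares. The pancreas list held 0.00580% of the footprints, with the hormones ins and sst2 at 38.9 and 29.5 TPM, but the digestive enzyme genes prss1, cpa5, prss59.1 and amy2a at 6.76, 0.807, 0.138 and 0.117 TPM and ela2 without a footprint. The intestine list held 0.0393%, with the lipid binding protein fabp2 at 346 TPM, apoa4a at 131 TPM and agr2 at 96.2 TPM, while vil1, cdx1b and fabp6 had 4.43, 2.31 and 0.108 TPM. On the kidney list, 0.0244%, slc4a4a had 23.2 TPM, cdh17 10.9 TPM, lrp2a 7.16 TPM and nphs1 0.737 TPM, and slc12a3 had no footprint. Germ cell and oocyte genes held 0.000691%, with ddx4 at 1.69 TPM, nanos3 at 1.09 TPM, piwil1 at 0.586 TPM, dazl at 0.375 TPM and zp2.1 without a footprint. Hair cell and inner ear genes held 0.0492%, of which 60.1% lay on the ear stone gene stm (151 TPM), with s100t at 69.8 TPM, s100s at 35.2 TPM, myo6b at 5.61 TPM, otofb at 4.60 TPM and strc at 0.144 TPM. Olfactory neuron genes held 0.00700%, of which 62.6% lay on ebf2 (23.6 TPM), a factor of many developing neurons, and without it 0.00262%, with ompa at 11.2 TPM, gng8 at 6.09 TPM, ompb at 4.89 TPM and cnga4 at 1.22 TPM.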

How the data were processed

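Ribo-seq was measured in material labelled as brain of nop2 siblings, 1 library. Lysates of frozen tissue were digested with RNase I, per the labels' protocols, ribosome-protected RNA was isolated by size exclusion, and antisense probes with RNase H removed ribosomal RNA. The build GRCz11 and the tools SAMtools, STAR, HISAT2, Bowtie2, fastp, methylKit and Trimmomatic 0.38 are named for the series, with no role or order, per the submitters' processing notes. The counting program and the annotation release are not given in the sources used here, and neither is the handling of reads that match several genes.

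The deposited table held 1 value per gene and library that was not always whole, and it was read as the authors' expected count. The deposited TPM values were scaled by the authors per length and library, per the file headers. Both mutant columns, 2 in number, were not used. Expected counts were rounded to whole numbers (a count within 0.001 of one was called whole), divided by their sum of 20696345 and multiplied to CPM. Exact Clopper-Pearson intervals were used for CPM and shares and exact Poisson intervals for TPM, at 95%, with pandas 2.3.3 and scipy 1.17.1 in Python 3.11.15. The scripts were tested on simulated data.

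The library, the lists and the families were chosen with earlier results of these data known. Family patterns were corrected after the symbols were seen, and the descriptions of transcription factor classes and of a and b copies were chosen after seeing the data. Of 958 list entries in 44 lists, 893 were found. The deposited symbol was tried before a reference name for the gene ID, and last the symbol without regard to letter case. Named were the 30 genes with most footprints, genes from the 20 with highest TPM, the 3 densest and all defining members of lists described, the 3 leading members of families and every globin. RefSeq's gene table (GRCz12tu) was matched by ID or symbol, and no sequence was printed. A few genes that the rule for named genes covers are not reported here.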

Additional observations from a re-analysis of the deposited data

How the results depend on the processing

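No paired analysis was possible because the description rests on 1 library and no test. Using deposited TPM, 278 genes held 50%, the top 100 genes 32.4%, skeletal muscle 7.74%, neurons 1.18%, epidermis 1.62%, lens 1.68% and ribosomal proteins 6.53%. Without mitochondrially encoded genes, the top 100 held 28.8%, and the shares were 9.37% for muscle, 1.46% for neurons, 2.11% for epidermis, 1.17% for lens and 3.59% for ribosomal proteins. Without genes whose count is not whole, 875 genes held 50% and the top 100 held 19.8%, and the shares were 1.22% for muscle, 0.690% for neurons, 0.522% for epidermis, 0.269% for lens and 6.40% for ribosomal proteins. That alternative removes most muscle, keratin, actin and crystallin footprints by construction. Without the 10 most abundant genes, the top 100 held 21.1%, muscle 5.52%, neurons 1.63%, epidermis 2.36%, lens 1.31% and ribosomal proteins 4.01%. Without the gene that RefSeq lists as rRNA, an alternative chosen after seeing the data, the values were 28.3%, 9.40%, 1.46%, 2.12%, 1.18% and 3.60% in that order. The muscle share stood above the epidermis and neuron shares under each of these settings, while in TPM the lens list stood above both neurons and epidermis, and without genes whose count is not whole epidermis stood below neurons. Embryonic globins held 99.98% of globin footprints without genes whose count is not whole. At least 10 footprints were counted for 19637 genes and at least 1 CPM for 18166. The depth of 1 library limits detection to 0.145 CPM, the level of 3 counts, and no value here has a biological error.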

Other observations

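Zebrafish carry many genes as a pair of copies named a and b, many of them left from an ancient genome duplication in teleost fish. For 1372 pairs with at least 200 footprints together, whose names and descriptions differ only in a final lower-case a or b, the copy with the higher TPM held a median of 72.7% of the pair's TPM, and for the 867 pairs whose counts were whole it held 73.8%. The leading copy held at least 90% in 275 pairs and less than 60% in 324 pairs. The a copy was the denser copy in 755 pairs, 55.0%. Pairs were picked by name and description and not by descent. The set is therefore mixed, and some pairs, such as wnt5a and wnt5b, are not copies from that duplication. Among abundant pairs, fabp7a had 1782 TPM and fabp7b 7.85 TPM, hmga1a 2809 and hmga1b 71.6 TPM, and cryba1b 1374 and cryba1a 8.39 TPM. By contrast, hmgb2a and hmgb2b had 1374 and 1230 TPM, and apoeb and apoea 2063 and 1616 TPM. The hmga1, cryba1 and hmgb2 pairs include counts that were not whole, so their splits are estimates.

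By RefSeq's gene types, protein-coding genes held 91.5% of the footprints, 90 genes listed as lncRNA held 0.0359%, 1 gene listed as rRNA held 0.731%, and genes without a match held 7.02%. Genes outside the 30 tissue lists and the 50 families held 54.8% of the footprints. Among them, chosen after their values were seen like the pairs above, were the RNA-binding proteins cirbpb with 2953 TPM and khdrbs1a with 1522 TPM, ubiquitin ubc with 970 TPM, the antifreeze protein type IV gene afp4 with 3214 TPM and cofilin cfl1, which severs actin filaments, with 1612 TPM.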
